A study of Homo sapiens with 4 samples.

Results

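The complement components and receptors described here are 10 genes: C1QA, C1QB, C1QC, C2, C3, CFB, CFD, CFP, C3AR1 and C5AR1. They were found as the non-control probes whose gene name in the array files is one of these symbols, which gave 12 probes for the 10 genes (C2 and C3 have 2 probes each), out of 34127 probes with 27193 gene names. The arrays measured RNA of THP1 cells, a human monocytic leukemia line that carries the MLL-AF9 fusion gene. Cells of 2 independent experiments received a single transfection with 30 nM of either the miR-511-5p mimic or negative control #1 mimic, and RNA was taken on day 2. Each treatment is therefore represented by 2 arrays, one from each experiment, and all 4 arrays carry a transfected small RNA; untransfected cells were not analysed here. The question of the comparison is which transcripts differ when miR-511 is raised in these monoblast-like cells. THP1 is 1 cell line, so the experiments are repeats of a culture and not different donors, and p-values measure only the spread between these cultures and arrays.

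Complement is a cascade of blood proteins that coats microbes and dying cells, draws in leukocytes and punctures membranes. The classical pathway starts when C1q binds antibody or a surface and its partner proteases cleave C4 and C2, and the alternative pathway runs on C3, factor B and factor D with properdin as its stabilizer. Both split C3 and release the small fragments C3a and C5a, which act on myeloid cells through C3AR1 and C5AR1. The liver makes most complement of the blood. Monocytes and macrophages are known as a local source of several components, among them properdin, and as main makers of C1q.

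The mimic imitates hsa-miR-511-5p. Its sequence is shown because pairing of a microRNA with a transcript starts at the seed, here bases 2 to 8 in capitals (RefSeq, GRCh38.p14, chr10:17845122-17845142, plus strand). The letters that would pair with this seed, AAAGACA, were searched in the sense strand of the probes, of 60 bases each. They occur in 0 of the 12 complement probes and in 331 of all 34127 probes (0.97%), which describes only these short windows and nothing of the rest of each transcript.
hsa-miR-511-5p: gUGUCUUUugcucugcaguca

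The probes that carry the measurements of C2, C3, CFB, CFP and C3AR1 are shown next, in the sense of the transcript and 5′ to 3′, because every level below is the signal of such a single stretch of the message. No capitals are used in them. Their positions are those of the files, on hg19. The C3 sequences belong to the brighter probe at chr19:6679177-6679434 and the dimmer probe at chr19:6686136-6686195, both on the minus strand, and the C2 sequence to its dimmer probe at chr6:31912555-31912614 on the plus strand. The first C3 probe spans 258 bases of the genome and the CFB probe (chr6:31918992-31919147, plus strand) 156 bases, so that each crosses at least 1 splice junction. The CFP probe lies at chrX:47483683-47483742 and the C3AR1 probe at chr12:8211348-8211407, both on the minus strand. Which exon the probes fall in was not analysed here.
C3 brighter probe: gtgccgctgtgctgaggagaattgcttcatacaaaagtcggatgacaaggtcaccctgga
C3 dimmer probe: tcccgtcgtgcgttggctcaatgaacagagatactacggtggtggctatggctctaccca
C2 dimmer probe: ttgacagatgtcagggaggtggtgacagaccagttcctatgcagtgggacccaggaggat
CFB probe: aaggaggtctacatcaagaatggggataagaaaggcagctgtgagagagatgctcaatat
CFP probe: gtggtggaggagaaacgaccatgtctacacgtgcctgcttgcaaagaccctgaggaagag
C3AR1 probe: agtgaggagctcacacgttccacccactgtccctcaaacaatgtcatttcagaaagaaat

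The remaining positions are those of the C2 brighter probe (chr6:31913187-31913246), CFD (chr19:863247-863306) and C5AR1 (chr19:47824501-47824560), all on the plus strand. The probes of the C1q genes lie together on chromosome 1, C1QA at chr1:22965795-22965854, C1QC at chr1:22974089-22974148 and C1QB at chr1:22987795-22987854. In RefSeq the C1q genes are next to each other, as are CFD and the neutrophil elastase gene ELANE. C2 and CFB, which encode related proteases of the classical and the alternative pathway, lie close together on chromosome 6.

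In THP1 cells, transcripts of C2, C3, factor D, properdin and the C3a receptor were measured on every array, whereas those of the C1q chains, factor B and the C5a receptor C5AR1 did not rise well above background on any. The 7 probes of C2, C3, CFD, CFP and C3AR1 were well above background on all 4 arrays, and the 5 probes of C1QA, C1QB, C1QC, CFB and C5AR1 were well above background on none. "Well above background" is the mark the scanner software gives to a spot that exceeds its local background clearly. The lowest signal with this mark was 9.07 to 10.9 intensity units per array, and 64.8% to 69.3% of all probes had it. No probe was saturated. Signals in the next paragraphs are processed intensities before normalization between arrays.

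**Figure D1:**
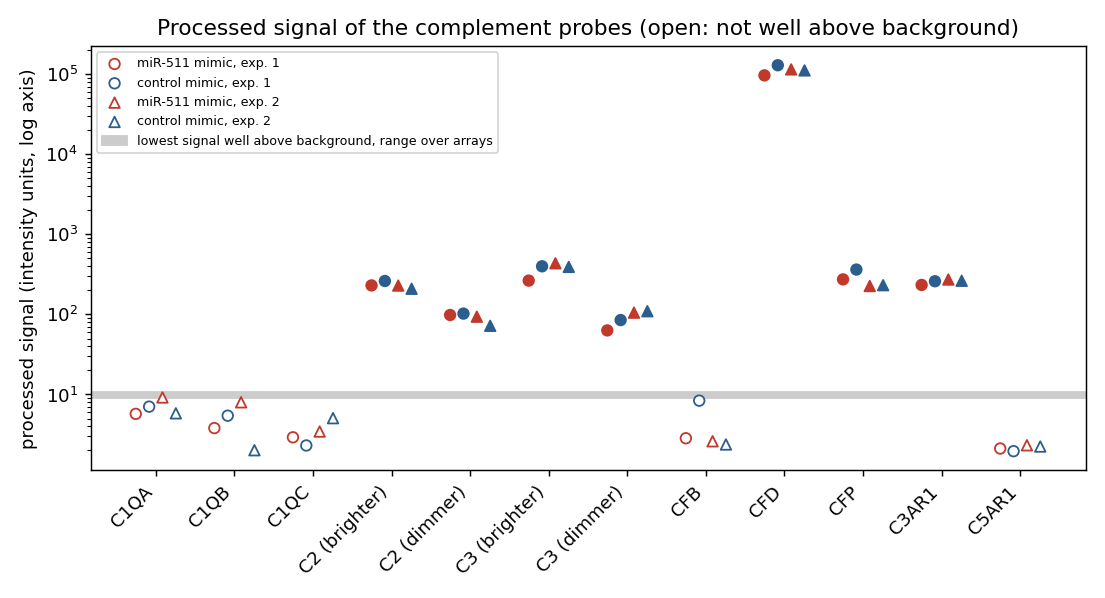
Processed signal of each of the 12 complement probes on the 4 arrays (y axis, intensity units, log axis); circles are experiment 1, triangles experiment 2, red the miR-511 mimic and blue the control mimic. Filled points are well above background and open points are not; the grey band is the range over arrays of the lowest signal well above background, 9.07 to 10.9, and the probes of C1QB, C1QC, CFB and C5AR1 sit below it, C1QA reaches into it on 1 array (9.17), and those of C2, C3, CFD, CFP and C3AR1 sit above it.

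C1q, the recognition protein of the classical pathway, is built from the A, B and C chains. The C1QA probe read 5.72 and 9.17 intensity units with miR-511 in experiments 1 and 2, and 7.05 and 5.82 with control. The C1QB probe read 3.80 and 7.98 with miR-511 against 5.43 and 2.01 with control, and the C1QC probe 2.92 and 3.44 against 2.30 and 5.06. In these intensities the treatments overlapped for all 3 chains, and the array with the highest reading was miR-511 in experiment 2 for C1QA and C1QB but control in experiment 2 for C1QC. After normalization C1QB and C1QC still overlapped, while C1QA read higher with miR-511 in both experiments (log2 2.82 and 3.08 against 2.59 and 2.56). C1QA was marked as significantly different from background, a weaker mark than "well above", on 4 of 4 arrays, C1QB and C1QC on 3 of 4. No fold is given for these probes, since none was well above background on any array and their readings are too close to background for a reliable fold.

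C2, the protease that joins C4 to form the C3 convertase of the classical pathway, was measured by 2 probes. The brighter probe read 230.3 and 229.1 with miR-511 in experiments 1 and 2, and 261.6 and 209.1 with control. The dimmer probe read 98.3 and 93.6 against 102.4 and 72.0. On neither probe did the treatments separate, and the control array of experiment 2 was lowest on both.

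C3, the protein on which all pathways meet, was also measured by 2 probes. Signals of the brighter probe were 264.6 and 435.4 with miR-511 and 399.2 and 392.5 with control, in experiments 1 and 2. Those of the dimmer probe were 63.1 and 105.2 against 85.0 and 109.6. The miR-511 array of experiment 1 was the lowest on both probes, and on both the treatments overlapped.

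Of the alternative pathway, CFD encodes factor D, the protease that cleaves factor B once it is bound to C3b. Its probe was by far above background, with 96930 and 115100 intensity units with miR-511 in experiments 1 and 2 and 129800 and 111800 with control. CFP encodes properdin, which holds the alternative C3 convertase together. Its probe read 274.1 and 226.3 with miR-511 and 363.5 and 231.9 with control, so that both arrays of experiment 1 were above both of experiment 2. CFB, the gene of factor B, was not well above background in any array. It read 2.84 and 2.60 with miR-511 and 8.37 and 2.37 with control, and 2 of the 4 readings were surrogate values that the scanner software puts in place of signals it cannot tell from background.

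Of the receptors, C3AR1 binds C3a and C5AR1 binds C5a. The C3AR1 probe was the most even of the detected probes, with 233.5 and 272.8 with miR-511 and 259.6 and 263.2 with control. The C5AR1 probe read 2.11 and 2.32 against 1.96 and 2.24, and all 4 of these are surrogate values. Detection thus separated the anaphylatoxin receptors in these cells, with C3AR1 measured on every array and C5AR1 on none.

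With miR-511, none of the detected complement transcripts passed the test in either direction. Past an unadjusted p of 0.05, the threshold of the study's methods, were 0 of the 7 tested complement probes and 498 of all 22638 tested probes (2.20%). After Benjamini-Hochberg adjustment 0 of the complement probes and 0 of all probes passed (limma), and every complement probe had an adjusted p of 1.00. All differences here are log2 differences of quantile-normalized signal, miR-511 minus control. Their median over the 7 complement probes was -0.10 beside 0.01 over all tested probes, and the median size without regard to sign was 0.14 beside 0.08. The treatments overlapped on all 7 complement probes, while 25.7% of all tested probes had treatments that did not overlap.

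**Figure D2:**
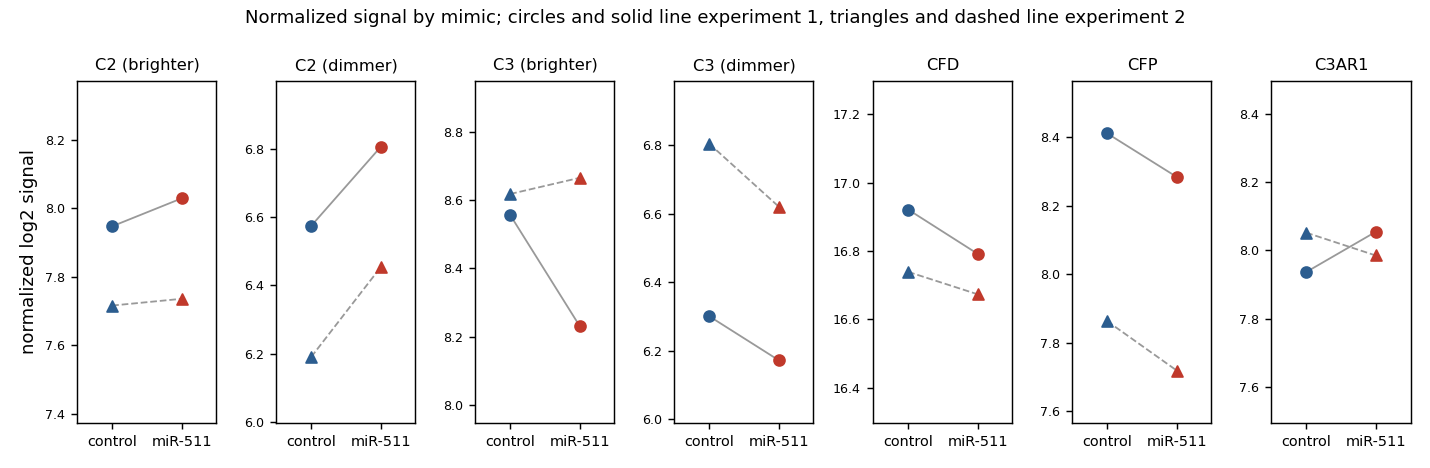
Normalized log2 signal (y axis) of the 7 complement probes well above background on all 4 arrays, one panel a probe with the same span, with the treatments on the x axis, circles for experiment 1, triangles for experiment 2 and lines joining arrays of one experiment. The treatments overlap in every panel; the experiments lie apart for all probes but C3AR1, widest for CFP (8.28 and 8.41 in experiment 1, 7.72 and 7.86 in experiment 2).

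The closest to a shift in both experiments was C2. Its dimmer probe was higher with miR-511 by 0.23 in experiment 1 (6.81 against 6.57) and by 0.26 in experiment 2 (6.45 against 6.19), which gave a mean difference of 0.25 ± 0.20 (SE, n = 2 arrays per treatment; limma adjusted p = 1.00). The 95% interval ran from -0.30 to 0.80, that is from 0.810-fold to 1.74-fold. The brighter C2 probe differed by 0.08 and 0.02 (mean 0.05 ± 0.16 SE, interval -0.38 to 0.48). Both probes of C2 had the same sign in both experiments. On neither was the difference larger than that between experiments, which does not measure the spread of differences within experiments. With the experiment as a block, which pairs the arrays, the dimmer probe had an SE of 0.08 (limma unadjusted p = 0.0506, adjusted p = 0.969).

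The C3 probes were lower on average with miR-511, without passing the test. The dimmer probe differed by -0.13 in experiment 1 and -0.18 in experiment 2, a mean of -0.16 ± 0.25 (SE; 95% interval -0.84 to 0.53). The brighter probe differed by -0.33 in experiment 1 but 0.05 in experiment 2 (mean -0.14 ± 0.18 SE, interval -0.62 to 0.34). The probes of this gene thus shared the sign in experiment 1 and not in experiment 2.

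The factor D and properdin probes read slightly lower with miR-511 in both experiments, again without passing the test. CFD differed by -0.13 and -0.07 (mean -0.10 ± 0.12 SE, interval -0.42 to 0.22). CFP differed by -0.13 and -0.14, and its mean of -0.14 had an SE of 0.29, with the experiments themselves lying far apart (interval -0.92 to 0.65). C3AR1 differed by 0.12 and -0.07, with a mean of 0.03 ± 0.10 (SE; interval -0.25 to 0.30). Of the 7 probes, 3 were lower in both experiments (C3 dimmer, CFD, CFP), 2 were higher in both (the C2 probes) and 2 had opposite signs (C3 brighter, C3AR1). Over all tested probes 51.0% had the same sign in both experiments.

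**Figure D3:**
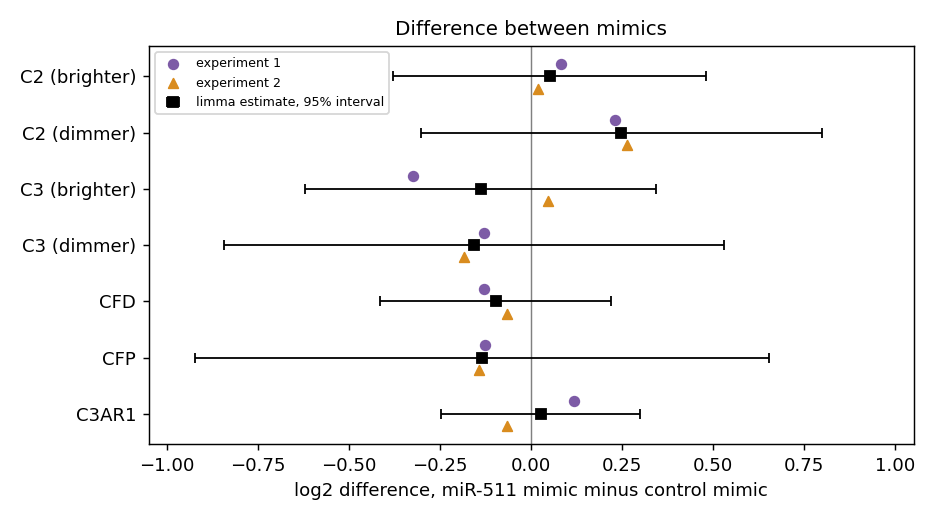
Log2 difference of miR-511 minus control mimic (x axis) for the 7 tested complement probes, as the limma estimate with its 95% interval and the value of each experiment beside it. Every interval includes 0; the narrowest extends 0.27 and the widest, CFP, 0.79 to either side of its estimate.

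These intervals give the differences that are compatible with the arrays under the reported fit. A change of C3AR1 beyond 1.23-fold upwards or 0.842-fold downwards lies outside its interval, but for CFP the interval still includes 0.527-fold and 1.57-fold. With the experiment as a block, which pairs the arrays as the labels do, the log2 interval narrowed to -0.38 to 0.11 for CFP (SE 0.08) and to -0.0012 to 0.50 for the dimmer C2 probe (SE 0.08), and all 7 intervals still included 0. The median standard error was 0.18 over the complement probes and 0.12 over all tested probes. An exact two-sided permutation test of 2 arrays against 2 cannot give a p below 0.333, so none was run for single probes. In RNA of a whole culture, fewer cells that express a gene and less of its RNA per cell cannot be told apart.

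Between the experiments, differences of the same transcripts were larger in size. The properdin probe and 1 C2 probe were lower and 1 C3 probe was higher in experiment 2, past an unadjusted p of 0.05 on 3 of 7 complement probes, beside 3191 of 22596 tested probes (14.1%). After adjustment 0 of all probes passed, and the smallest adjusted p was 0.205 for a complement probe and 0.0632 for any probe (limma). The experiments did not overlap on 6 of the 7 complement probes, where 49.4% of all tested probes did not. The size of the difference had a median of 0.26 over the complement probes and 0.12 over all tested probes. On 6 of the 7 it was larger than the treatment difference of the same probe, which held for 62.4% of all probes, and both differences come from the same 4 arrays.

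CFP moved farthest. It fell by 0.56 on the log2 scale from experiment 1 to experiment 2 (SE 0.09, 95% interval -0.82 to -0.29, 0.679-fold, limma adjusted p = 0.205), and it was lower in experiment 2 under both treatments. The brighter C2 probe fell by 0.26 (SE 0.07, limma adjusted p = 0.291). The dimmer C2 probe differed by -0.37 ± 0.14 (SE), which was not past the unadjusted threshold (limma adjusted p = 0.371). With treatment as a term in the fit, which compares the experiments within treatment, the dimmer C2 probe also passed it, so that 4 of 7 did, beside 11.9% of all tested probes.

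C3 went the other way. The dimmer probe rose by 0.48 in experiment 2 (SE 0.10, interval 0.19 to 0.76, limma adjusted p = 0.241), from 6.17 and 6.30 to 6.62 and 6.81. The brighter probe differed by 0.25 ± 0.13 (SE, limma adjusted p = 0.478), and there the control arrays were nearly level (8.56 and 8.62). CFD differed by -0.15 ± 0.08 and C3AR1 by 0.02 ± 0.08 (SE), both short of the threshold.

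**Figure D4:**
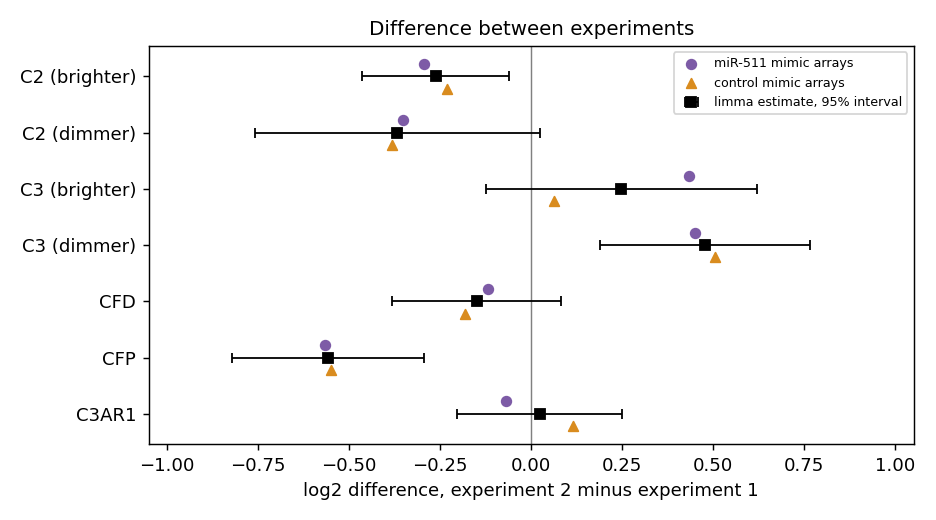
Log2 difference of experiment 2 minus experiment 1 (x axis) for the 7 tested complement probes, as the limma estimate with its 95% interval and the value within each treatment beside it. CFP and the brighter C2 probe lie below 0 and the dimmer C3 probe above 0 with intervals that leave out 0; C3AR1 sits at 0.02.

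These calls rest on few arrays. Without the miR-511 array of experiment 1 only CFP passed, which left 1 of 7 beside 9.98% of all tested probes, while without the control array of experiment 1 there were 4 of 7 beside 15.1%. The summed normalized signal of the myeloid marker list below moved with the experiment as well. In that sum the brightest gene, TYROBP, weighs most. Its part in these differences was not tested. All arrays were on 1 slide and were scanned together.

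Of 54 further complement genes, listed with earlier results of these data known, 53 had a probe (70 probes), 25 were well above background on all 4 arrays and 24 on none. With miR-511, 1 of their 33 tested probes was past the unadjusted threshold, upwards, and 0 downwards, beside the 2.20% of all tested probes; their median log2 difference was -0.03. Between the experiments 9 of 32 tested probes passed, beside the 14.1% of all tested probes.

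**Figure D5:**
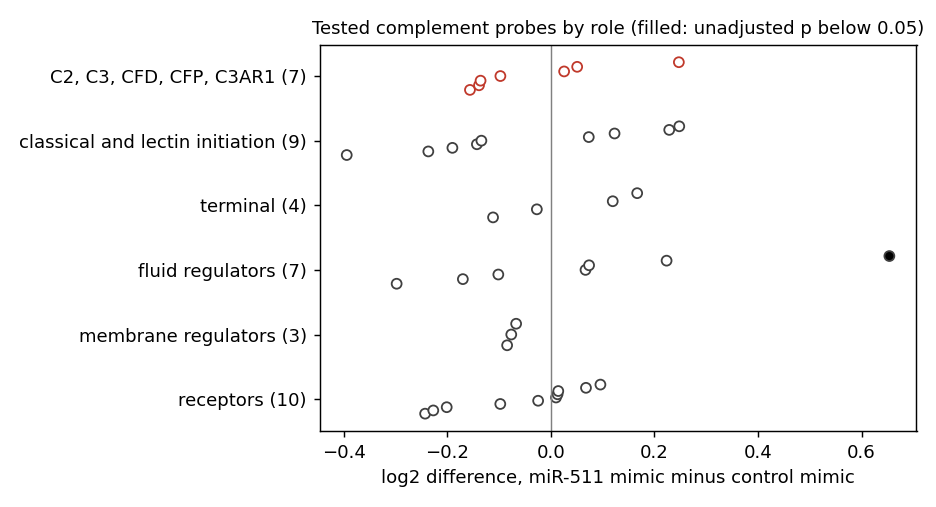
Log2 difference of miR-511 minus control mimic (x axis) for each tested complement probe, 1 point a probe, in rows by role (number of probes in brackets), with C2, C3, CFD, CFP and C3AR1 in red at the top. The 3 membrane regulators lie at -0.07 to -0.08, every other row has points on both sides of 0, and the single filled point, past the unadjusted threshold, is SERPING1 at 0.65.

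The probe past the threshold belongs to SERPING1, the gene of C1 inhibitor, which blocks the proteases of the classical and lectin pathways. It was higher by 0.65 (SE 0.22, limma adjusted p = 1.00) and was well above background on 3 of 4 arrays. The array that fell short was the control of experiment 2, with 7.38 intensity units. The probe therefore entered the test only through its miR-511 arrays, where it was higher. This low reading also gave the larger difference, 0.87 in experiment 2 against 0.44 in experiment 1, so the call is no support for a change. The other SERPING1 probes differed by 0.22 (well above background on 4 of 4 arrays) and by -0.30 (on 2 of 4), and neither passed, so the probes of this gene disagreed in sign.

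Among the initiators C1R, C1S, C4B, COLEC11, FCN3, MASP2 and PTX3 were measured on all 4 arrays, and FCN1 was well above background on 3 of 4. Of the 9 tested probes of these genes 0 were past the threshold. C1S, MASP2 and FCN1 each had a further, dimmer probe that was well above background on no array. The signal of C4B cannot be assigned to it with certainty, because a nearly identical gene copy lies beside it. The C1q partner proteases C1R and, on its brighter probe, C1S were thus well above background where the C1q chains were not. Of the membrane attack complex, C5, C7 and C8G were detected, and C6, C8A, C8B and C9 were well above background on no array.

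The regulators that protect a cell's own surface showed small differences. CD46 (a cofactor for cleavage of C3b) differed by -0.07, CD55 (which breaks up convertases) by -0.08 and THBD by -0.08, none past the threshold. The CD59 probe, for a protein that blocks the membrane attack complex, was well above background on no array. It read 8.11 to 9.09 intensity units and had the weaker mark, significantly different from background, on 4 of 4 arrays. Its transcript is therefore not shown to be absent.

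Of the receptors, the integrin chains of complement receptors 3 and 4 were detected and did not pass the test: ITGAM differed by 0.07, ITGAX by -0.24 and the 2 probes of their partner ITGB2 by -0.10 and -0.23. VSIG4, a macrophage receptor for C3 fragments, differed by -0.20 and CD93 by 0.10. C1QBP and CALR, both known to bind C1q, differed by 0.01 each, and the 2 probes of the collagen receptor LAIR1 by 0.01 and -0.02. CR1, CR2, MEGF10 and the other C5a receptor, C5AR2, were well above background on no array, so that neither C5a receptor was well above background.

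The cells carried the markers of their label. All 9 myeloid markers with a probe, of 10 listed (among them SPI1, CD33, CD14 and CSF1R) were well above background on all 4 arrays. Summed signals of the marker lists are sums of normalized signal, not on the log scale, so the brightest gene weighs most, here TYROBP. The myeloid sum was 97360 and 81760 with miR-511 in experiments 1 and 2, and 95990 and 76710 with control. It was thus lower in experiment 2 under both treatments, but the markers did not all move so: TYROBP went from 15.42 and 15.44 (miR-511 and control, normalized log2) to 15.13 and 14.84, while CD14 went from 6.76 and 6.47 to 6.85 and 6.81. Of 8 hepatocyte markers, ALB, APOB, TF, TTR, FGA and FGB were well above background on no array and APOA1 and SERPINA1 on all, with summed signals of 141.7 to 252.6. Of the T cell list, CD3G was well above background on no array, while 2 of 5 genes (CD3D, LCK) were on all 4. The summed signal of the T cell list was 92.1 to 108.1 and that of the 3 erythroid genes with a probe 134.0 to 176.6.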

How the data were processed

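Total RNA of THP1 cells was hybridized by the authors' provider to single-colour Agilent Human Whole Genome 4x44K v2 arrays, 1 array per treatment and experiment. The deposited scanner files hold the processed intensity of each spot, background-subtracted within the array and not normalized between arrays. The submitters' processing notes give Feature Extraction 10.5.1.1, and the file headers 10.7.3.1. A second deposited table holds log2 values that the authors made, quantile normalized over all 44495 features, which was used as an alternative. Gene names and hg19 positions are those of the files, and the accessions of 12 of 12 complement probes matched the RefSeq name.

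In R 4.3.3, log2 processed intensity of 43118 non-control spots was taken, 232 to 301 spots per array marked as outliers were left out, arrays were quantile normalized and spots of a probe averaged. A probe printed several times was well above background when more than 50% of its spots were. A probe was tested where both arrays of 1 group or more were well above background and all 4 arrays had a value. The test was limma 3.58.1 (lmFit, eBayes, two-sided, 4.14 degrees of freedom) at an unadjusted p below 0.05, as in the methods, with Benjamini-Hochberg adjustment beside it. The same fit compared the experiments. Precision is limited by the 4 arrays. The script was tested on simulated data.

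Every complement probe was named and every probe of C2 and C3 reported separately. Of the other complement genes, those past the unadjusted threshold, and the membrane regulators and receptors detected on all arrays, were named with values. The complement genes and all lists were chosen with earlier results of these data known. A list of B cell markers is not reported here. The experiment number in the labels pairs the arrays; deviations of same-numbered arrays from their treatment means correlated with r = 0.271 over 22638 probes. The methods name no term for the experiment; the reported fit had none, and the experiment was used as a block in an alternative. The slide could not serve as a block, because 1 slide held all arrays. The study's further condition over identical replicate probes was not applied. Each probe of the 10 genes described first was printed in 1 spot. Some probes of the further complement genes, such as those of PTX3 and ITGAM, were printed in 10 spots. For these, and for the counts over all probes, the condition was left out although it could apply.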

Additional observations from a re-analysis of the deposited data

How the results depend on the processing

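The treatment comparison gave 0 complement probes past the unadjusted threshold under every alternative run: scaling to the 75th percentile, normexp background correction, no filter or a filter on all 4 arrays, the deposited table, an ordinary equal-variance test of each probe, the replicate block and leaving out each array. With the experiment number as a replicate block the count was 0 of the complement probes and 894 of all probes, where the reported fit called 498. Over all probes the other alternatives called 265 (normexp) to 1440 (without the miR-511 array of experiment 2), with no filter 1029, and the ordinary equal-variance test, which the methods do not name for this comparison, called 708, of which 0 passed after Benjamini-Hochberg adjustment. Leaving out 1 array turned the sign of several treatment differences: the range was -0.10 to 0.20 for the brighter C2 probe, -0.36 to 0.0780 for the brighter and -0.41 to 0.10 for the dimmer C3 probe, -0.42 to 0.15 for CFP and -0.0322 to 0.0831 for C3AR1. These fits had no term for the experiment, so part of the experiment difference then entered the treatment difference. Within the experiments the sign did not turn for CFP (-0.13 and -0.14), the brighter C2 probe (0.08 and 0.02) or the dimmer C3 probe (-0.13 and -0.18). It did for the brighter C3 probe and C3AR1. Between the experiments, 3 complement probes passed in the reported fit, 3 to 4 under the other scalings, filters and the treatment term, and 1 to 4 when an array was left out, while 8.62% to 15.1% of all tested probes passed over these alternatives. The C3AR1 difference between experiments became -0.0072 with the 75th percentile and -0.0288 with normexp, and ranged from -0.0358 to 0.0819 without single arrays. Of the other complement genes, 1 probe was past the threshold for the treatment (SERPING1), and 1 of the same gene with the deposited table and with the replicate block. The count was 0 with 75th percentile scaling, 0 with probes required on all 4 arrays and 3 with no filter (COLEC10, CPN1, CSMD1). Leaving out 1 array leaves 1 array in a treatment, so calls of these genes are not given for it. With normexp and with the ordinary test the 1 probe past the threshold was one of ITGB2 instead. The causes of these changes in the calls were not tested. The 5 probes near background were well above it on no array and were not tested in the reported fit. The printed intervals, from 2 arrays per treatment, give the differences compatible with the data and are not limits of detection.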
